A study of Mus musculus with 8 samples.

Results

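The syntrophins are adaptor proteins that carry a PDZ domain and hang on the dystrophin complex beneath the plasma membrane. In that complex dystrophin, or its widely expressed paralogue utrophin, ties the actin cytoskeleton to dystroglycan and the sarcoglycans in the membrane, and dystroglycan in turn binds laminins and agrin outside the cell. Dystrobrevins are relatives of dystrophin that offer further binding sites for syntrophins. The complex is best known from muscle, where its loss causes muscular dystrophy, but epithelial cells including hepatocytes hold utrophin-based versions, and beta-1-syntrophin has been found bound to the cholesterol exporter ABCA1.

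The 9 member genes followed here were the syntrophins Sntb1, Sntb2, Sntg1 and Sntg2, dystrophin (Dmd), utrophin (Utrn), the dystrobrevins Dtna and Dtnb, and beta-sarcoglycan (Sgcb). Members were the transcript clusters, the array's units of measurement, that the platform annotation names for these genes. Each gene had 1 cluster, carrying its symbol alone, so the set is 9 of 41345 clusters, or 9 of 22180 genes with a cluster of their own. The genes were selected on measured values, with the Zfp125 against empty vector differences of these same arrays known. Their differences are therefore given as a description, with standard errors (SE) and 95% intervals but no test, and no p-value is printed for them.

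The arrays were Affymetrix MoGene 2.0 ST, hybridised with RNA of AML12, a mouse hepatocyte cell line. One group of 4 arrays came from AML12 cells stably expressing Zfp125, a zinc finger protein gene, and the other group of 4 from AML12 cells with the empty vector (EV). Cells of both groups had gone through G418 selection and grew in control medium. Whether replicate samples were independent cultures or clones, and which promoter drove Zfp125, is not told by the labels, so the spread between them may be technical. No cluster was named for Zfp125 in the annotation used, so its level is not analysed here and the group labels rest on the submitters alone.

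All values are log2 expression values as deposited, n = 4 arrays in each group, errors of means are SDs, and differences are Zfp125 minus EV. Array medians lay between 4.32 and 4.37, and any 2 arrays correlated at 0.977 to 0.984 over all clusters. For genes outside the members, a call means an adjusted p under 0.05 in limma's moderated test, with Benjamini-Hochberg adjustment over all 41345 clusters. Precision is set by the 4 arrays per group; the SD of a cluster had a median of 0.154 in Zfp125 cells and 0.172 in EV cells. Of 8 hepatocyte markers the brightest were Alb (12.48 ± 0.06 in Zfp125 cells and 12.96 ± 0.09 in EV cells) and Ttr (12.66 ± 0.14 in Zfp125 cells and 12.58 ± 0.08 in EV cells). Serpina1b read only 5.46 ± 0.12 in Zfp125 cells and 5.57 ± 0.10 in EV cells. Among bile duct markers, Sox9 was bright, with 10.04 ± 0.10 in Zfp125 cells and 9.75 ± 0.06 in EV cells. Epcam was dim, with 2.76 ± 0.06 in Zfp125 cells and 2.73 ± 0.13 in EV cells. These levels alone do not settle the cell identity.

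Among the members, 1 gene stood far from the rest. Sntb1, which encodes beta-1-syntrophin, was 2.90-fold lower in Zfp125 cells than in EV cells, while the other 8 members had differences between -0.19 and 0.30 on the log2 scale. Sntb1 read 4.62, 5.005, 4.71 and 5.03 on the 4 Zfp125 arrays, against 6.39, 6.18, 6.35 and 6.59 on the 4 EV arrays. All 4 Zfp125 arrays lay below all 4 EV arrays, and the gap between the highest Zfp125 array and the lowest EV array was wider than the range within either group. The means were 4.84 ± 0.21 in Zfp125 cells and 6.38 ± 0.17 in EV cells, a difference of -1.54 ± 0.13 (SE; 95% interval -1.83 to -1.25). Over all 41345 clusters this was difference number 3 counted from the lowest. The value hardly depended on any 1 array: it lay between -1.60 and -1.46 when each of the 8 was left out in turn.

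**Figure D1:**
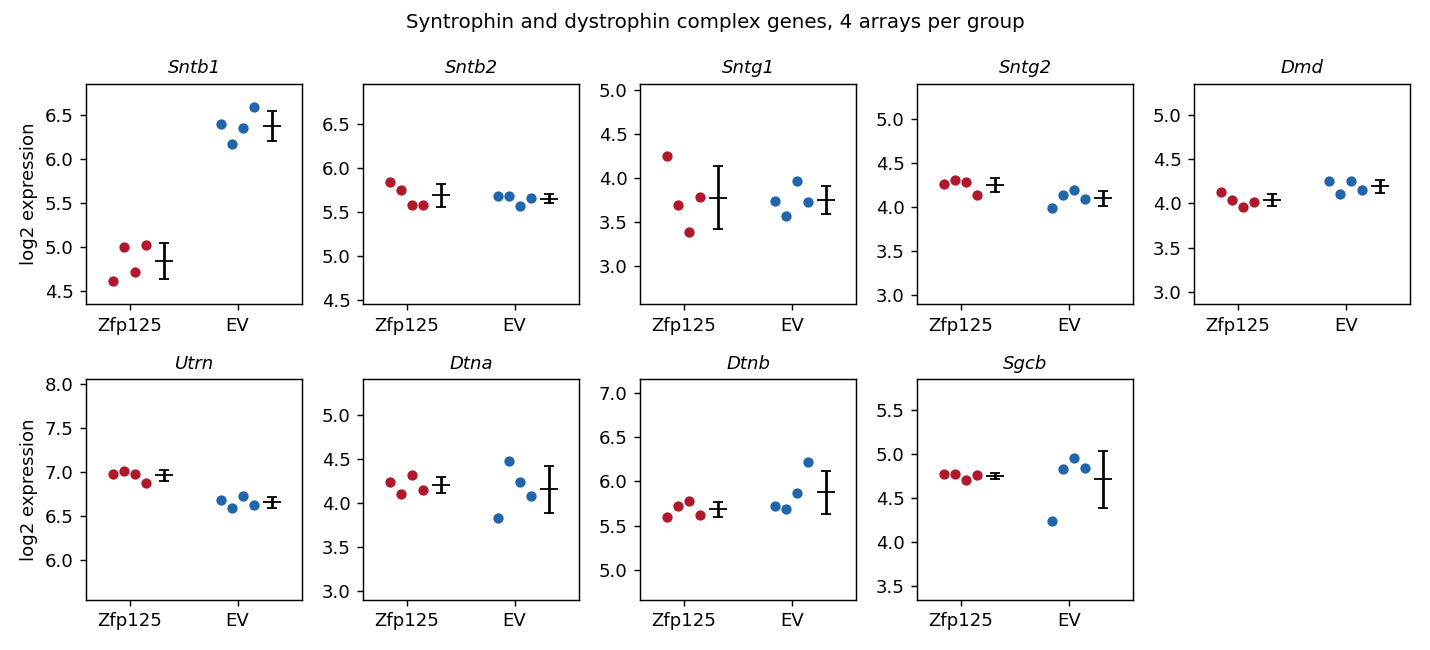
Log2 expression of the 9 members on each array, with Zfp125 cells at the left and EV cells at the right of each panel; points are arrays and black bars are the mean ± SD (n = 4). Every panel spans the same 2.5 log2 units, and the groups lie apart in the panels of Sntb1 (-1.54) and Utrn (0.30).

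The other syntrophins did not share this difference. Sntb2, the paralogue beta-2-syntrophin that is widely expressed outside muscle, read 5.84, 5.76, 5.58 and 5.59 in Zfp125 cells, against 5.68, 5.69, 5.57 and 5.67 in EV cells. The groups overlapped, though Zfp125 replicates 1 and 2 lay above every EV array, and the difference was 0.04 ± 0.09 (SE; 95% interval -0.17 to 0.24). The interval of Sntb2 therefore stayed well clear of a loss of the size seen for Sntb1.

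Sntg1 encodes gamma-1-syntrophin, known from neurons, and Sntg2 encodes gamma-2-syntrophin. Sntg1 read 4.25, 3.69, 3.39 and 3.78 in Zfp125 cells, against 3.74, 3.57, 3.96 and 3.73 in EV cells. It was the member with the widest spread in Zfp125 cells (SD 0.36, against 0.16 in EV cells), its groups overlapped, and its difference was 0.03 ± 0.17 (SE; 95% interval -0.36 to 0.41). Sntg2 read 4.26, 4.31, 4.28 and 4.13 in Zfp125 cells, against 3.99, 4.13, 4.18 and 4.09 in EV cells. Here 3 of 4 Zfp125 arrays lay above every EV array, with a difference of 0.15 ± 0.08 (SE; 95% interval -0.04 to 0.34). Both gamma-syntrophin genes lay below the median level of all clusters, 4.34. No detection call was used here, so a level in that range cannot be told from background, and a small difference there carries little information about the gene.

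Of the large scaffold proteins, utrophin was the only member besides Sntb1 whose groups did not overlap. Utrn read 6.98, 7.01, 6.97 and 6.88 in Zfp125 cells, against 6.68, 6.59, 6.73 and 6.62 in EV cells. The lowest Zfp125 array was above the highest EV array, and both groups were tight, with means of 6.96 ± 0.06 in Zfp125 cells and 6.65 ± 0.06 in EV cells. The difference was 0.30 ± 0.08 (SE; 95% interval 0.13 to 0.48), a 1.23-fold higher level in Zfp125 cells. It lay between 0.28 and 0.33 when each array was left out in turn.

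Dmd, the dystrophin gene itself, read 4.13, 4.04, 3.96 and 4.02 in Zfp125 cells, against 4.26, 4.11, 4.26 and 4.15 in EV cells. The groups overlapped by 1 array on each side, and the difference was -0.16 ± 0.08 (SE; 95% interval -0.34 to 0.03). Dmd makes a full-length protein in muscle and shorter products from internal promoters elsewhere; a single value per gene does not separate them. Its level was below the median of all clusters in both groups.

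The dystrobrevins and beta-sarcoglycan had groups that overlapped. Dtnb, whose product beta-dystrobrevin belongs to non-muscle tissues, read 5.60, 5.73, 5.78 and 5.62 in Zfp125 cells, against 5.72, 5.69, 5.87 and 6.22 in EV cells. EV replicate 4 was the highest array; the difference of -0.19 ± 0.12 (SE; 95% interval -0.47 to 0.09) was -0.08 without it. Dtna, the alpha-dystrobrevin gene, read 4.24, 4.11, 4.32 and 4.15 in Zfp125 cells, against 3.83, 4.48, 4.24 and 4.08 in EV cells. Both the lowest and the highest Dtna arrays were EV arrays, and the difference was 0.05 ± 0.13 (SE; 95% interval -0.25 to 0.35). Sgcb, one of the sarcoglycans that brace dystroglycan in the membrane, read 4.77, 4.77, 4.70 and 4.76 in Zfp125 cells, against 4.24, 4.82, 4.95 and 4.83 in EV cells. The 4 Zfp125 arrays of Sgcb were close together (SD 0.03) and EV replicate 1 lay below all other arrays; the difference of 0.04 ± 0.15 (SE; 95% interval -0.30 to 0.37) was -0.12 without that array.

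**Figure D2:**
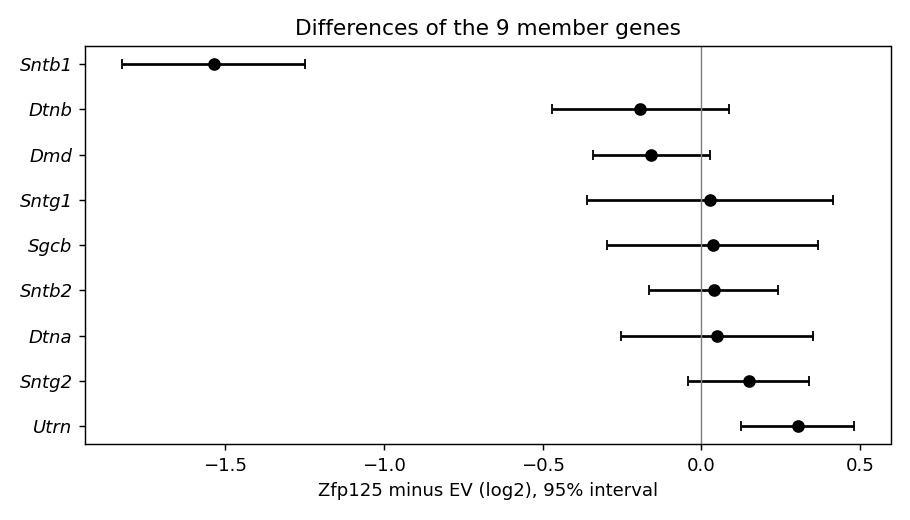
Zfp125 minus EV difference of each member on the log2 scale; points are differences of means (n = 4 arrays each) and bars are 95% intervals from limma's moderated variance. Sntb1 lies alone at -1.54, and the intervals of 7 of the 9 members include 0.

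By the threshold of the fit over all clusters, 1 of the 9 members (Sntb1) was lower in Zfp125 cells and 0 were higher. Among all clusters 0.123% were called lower and 0.0242% higher (0.148% in either direction). The groups of 2 of 9 members did not overlap, 1 being lower and 1 higher in Zfp125 cells, beside 6.23% of all clusters (3.03% lower and 3.2% higher). The genes were chosen with these differences known, so nothing is read from these counts. The median difference was 0.04 over the 9 members and -9.53e-04 over all clusters, and 6 of 9 members had a positive difference, beside 49.7% of all clusters. In bulk RNA, fewer cells with a transcript and less transcript per cell cannot be told apart.

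The array profile of Sntb1 was set against those of all genes with a symbol of their own. Likeness was the root mean square difference over the 8 arrays, each profile being centred on its own mean. The 5 closest genes were Cybb (0.172 log2 units), Tat (0.182), Hp (0.185), Kng2 (0.198) and Kyat3 (0.200). Cybb encodes the catalytic subunit of the phagocyte NADPH oxidase, Tat tyrosine aminotransferase, Hp the plasma protein haptoglobin, Kng2 a kininogen and Kyat3 a kynurenine aminotransferase. The measure rests mostly on the step between the groups, which was -1.36 for Cybb, -1.46 for Tat, -1.66 for Hp, -1.27 for Kng2 and -1.25 for Kyat3. Within the Zfp125 cells, replicate 1 was the lowest array for Sntb1 and Kng2, which put these 4 arrays in the same order, replicate 2 for Cybb and Hp, and replicate 3 for Tat and Kyat3. Within the EV cells, replicate 2 was the lowest for Sntb1, Cybb, Tat and Kyat3, and replicate 4 the highest for Sntb1, Cybb, Tat and Hp.

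**Figure D3:**
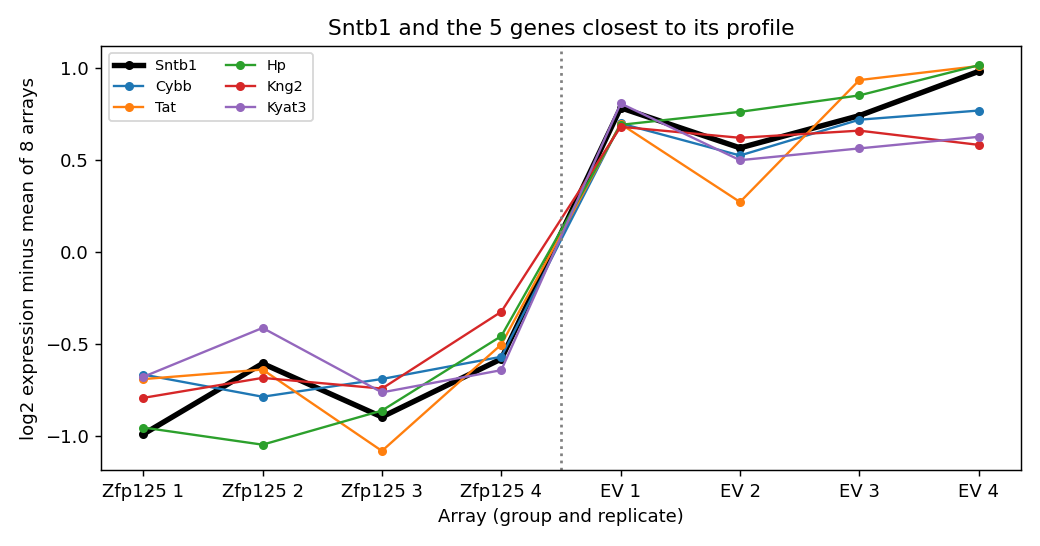
Log2 expression minus the mean over 8 arrays for Sntb1 (black) and the 5 genes with the smallest root mean square difference from it (0.172 to 0.200), by array. All 6 lines step up between the Zfp125 arrays at the left and the EV arrays at the right.

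The genes beside the members in the genome were read as well. For each member the nearest protein-coding gene with a cluster of its own was taken on either side in the RefSeq gene table, giving 18 genes. Gaps to the members ran from 0.328 to 1357 kb, so not all of these genes are close. None was called in limma's test over all clusters (0 of 18), and 1 had an unadjusted p under 0.05. Their differences ran between -0.16 and 0.27. The neighbours of Sntb1 are Mtbp, whose product binds MDM2, at a gap of 9.97 kb, and Has2, a hyaluronan synthase, at 758 kb. Mtbp had means of 5.02 ± 0.15 in Zfp125 cells and 4.75 ± 0.23 in EV cells, a difference of 0.27 ± 0.13 (SE, adjusted p = 0.58), and Has2 a difference of -0.13 ± 0.15 (SE, adjusted p = 0.849). Both had groups that overlapped.

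The rest of the pathway was read from 5 lists of 80 genes in all: other genes of the complex, dystroglycan ligands, enzymes that build or supply the dystroglycan glycan, partners reported to bind syntrophins, and cytoskeletal partners. Of these, 68 had a cluster of their own and 12 are not analysed here. In limma's test over all clusters 1 of 68 rose and 0 fell. An unadjusted p under 0.05 was found for 10 of 68 (14.7%), beside 9.43% of all clusters. All clusters include 16010 without a symbol, whereas each of the 68 genes stands by its brightest cluster. These shares are therefore not like for like, and the share over the 22180 genes is not given here. The median difference over the 68 was 0.05, beside -9.53e-04 over all clusters and -0.00268 over the 22180 genes. The groups of 11 of 68 genes (16.2%) did not overlap, beside 7.29% of the 22180 genes. In 8 of the 11 the Zfp125 cells were higher (3.71% over the 22180 genes) and in 3 they were lower (3.58%). The lists were chosen with earlier results of these data known. Nothing is therefore read from the counts of pathway genes, here or below, or from their excess over the background.

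The count differed when other features entered the fit, which changes both the variance moderation and the adjustment. Tested over 22180 genes with 1 cluster each, 4 of the 68 rose and 1 fell, beside 1.08% of genes called, 0.446% higher and 0.636% lower. These were Atp2b4 (adjusted p = 0.00297), Sgce (0.00666), Agrn (0.0137) and Lama5 (0.044), all higher, and Dtnbp1 (0.0444), lower, by limma.

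Among 17 measured syntrophin partners, 1 rose and 0 fell, with a median difference of 0.05. The gene that rose was Atp2b4, the plasma membrane calcium pump PMCA4. It read 6.23, 6.36, 6.24 and 6.07 in Zfp125 cells, against 5.16, 5.45, 5.54 and 5.59 in EV cells. The groups lay apart, with a difference of 0.79 ± 0.12 (SE, adjusted p = 0.0439 by limma), 1.73-fold higher in Zfp125 cells. The size stayed between 0.70 and 0.84 on leaving out each array, but the call ended in 8 of 8 omissions (adjusted p between 0.0605 and 0.153).

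The 2 partners next in order of p were Trpc4, a cation channel, with 0.26 ± 0.12 (SE, adjusted p = 0.53), and Plekha2, a phosphoinositide-binding adaptor, with -0.19 ± 0.09 (SE, adjusted p = 0.557). The second, dimmer cluster of Plekha2 had the opposite sign, 0.21 ± 0.13 (SE, adjusted p = 0.677). Abca1, named for its known link to beta-1-syntrophin and outside the rule for named genes, read 6.71, 6.65, 6.62 and 6.43 in Zfp125 cells, against 6.50, 6.53, 6.52 and 6.64 in EV cells. Its groups overlapped, and its difference was 0.05 ± 0.09 (SE; 95% interval -0.15 to 0.25, adjusted p = 0.91).

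Of 8 measured further genes of the complex, 0 were called, with a median difference of 0.02. Sgce encodes epsilon-sarcoglycan, a sarcoglycan expressed outside muscle and imprinted in the mouse. It read 6.40, 6.34, 6.35 and 6.30 in Zfp125 cells, against 5.96, 5.61, 5.60 and 5.48 in EV cells, and the groups lay apart. The difference was 0.69 ± 0.11 (SE, adjusted p = 0.0666 by limma over all clusters). Among omissions of 1 array, Sgce passed only without EV replicate 1 (adjusted p = 0.0328 by limma). All other omissions moved it further from a call (adjusted p between 0.131 and 0.197). Dag1, which encodes both dystroglycan subunits, averaged 9.03 ± 0.03 in Zfp125 cells and 8.80 ± 0.10 in EV cells. Its groups did not overlap either, though the difference of 0.22 ± 0.08 (SE) did not pass the test (adjusted p = 0.418).

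**Figure D4:**
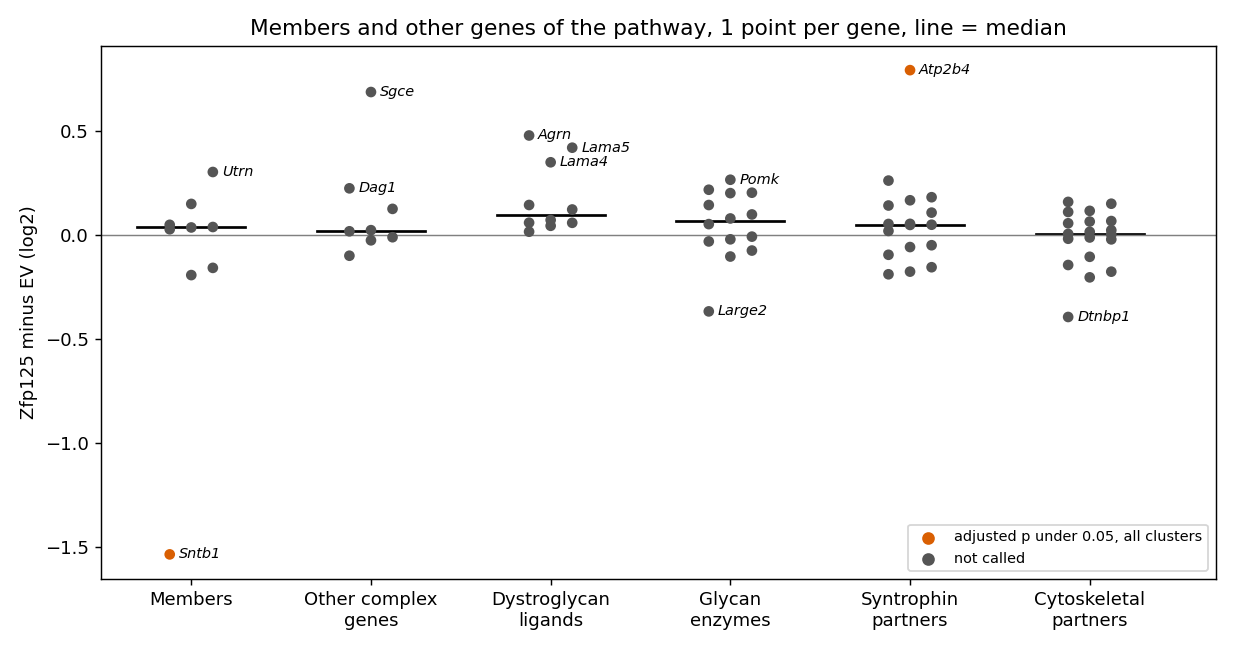
Zfp125 minus EV difference (log2) of each measured gene, for the 9 members and for the 5 pathway lists (8, 10, 14, 17 and 19 genes from left to right); each point is a gene, lines are medians, and orange points passed an adjusted p of 0.05 in limma over all clusters. Sntb1 is the lowest point and Atp2b4 the highest.

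Of 10 measured dystroglycan ligands, 0 were called and the median difference was 0.10. All 10 had a positive difference in the brightest cluster, but the second clusters of Egflam (-0.24) and Nrxn2 (-0.06) were negative. Only 6 of the 10 lay above the median level of all clusters, the lowest difference was 0.02, and the groups of 3 did not overlap. Positive differences were found in 5 of 8 further complex genes, 8 of 14 glycan enzymes, 11 of 17 syntrophin partners and 11 of 19 cytoskeletal partners, 45 of 68 in all, beside 49.2% of the 22180 genes. These sign counts also come from lists chosen with earlier results known, so nothing is read from them. Agrn encodes agrin, the heparan sulfate proteoglycan that binds dystroglycan. It read 8.43, 8.52, 8.48 and 8.44 in Zfp125 cells, against 8.02, 8.04, 7.90 and 8.003 in EV cells, and all Zfp125 arrays were above all EV arrays. The difference was 0.48 ± 0.08 (SE, adjusted p = 0.0666 by limma). Lama5, the laminin alpha-5 chain of epithelial basement membranes, averaged 7.40 ± 0.09 in Zfp125 cells and 6.98 ± 0.09 in EV cells, a difference of 0.42 ± 0.09 (SE, adjusted p = 0.13). Lama4, singled out after its values were seen because its groups did not overlap, had 0.35 ± 0.10 (SE, adjusted p = 0.256).

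Of 14 measured glycan enzymes, 0 were called and the median difference was 0.07. Large2, which extends the laminin-binding glycan of dystroglycan, read 4.24, 4.40, 4.29 and 4.33 in Zfp125 cells, against 4.70, 4.54, 4.67 and 4.83 in EV cells. The groups lay apart, with a difference of -0.37 ± 0.09 (SE, adjusted p = 0.198 by limma), at a level near the median of all clusters. Pomk, a kinase that phosphorylates the core of that glycan, had 0.27 ± 0.09 (SE, adjusted p = 0.37).

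Of 19 measured cytoskeletal partners, 0 were called and the median difference was 0.01. Dtnbp1 encodes dysbindin, a dystrobrevin-binding protein of lysosome-related organelles. It read 5.60, 5.66, 5.71 and 5.65 in Zfp125 cells, against 5.95, 6.07, 6.06 and 6.14 in EV cells. Every Zfp125 array was below every EV array, and the difference was -0.39 ± 0.08 (SE, adjusted p = 0.123 by limma). Plec, the cytoskeletal linker plectin, had 0.15 ± 0.08 (SE, adjusted p = 0.619) with groups that overlapped.

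**Figure D5:**
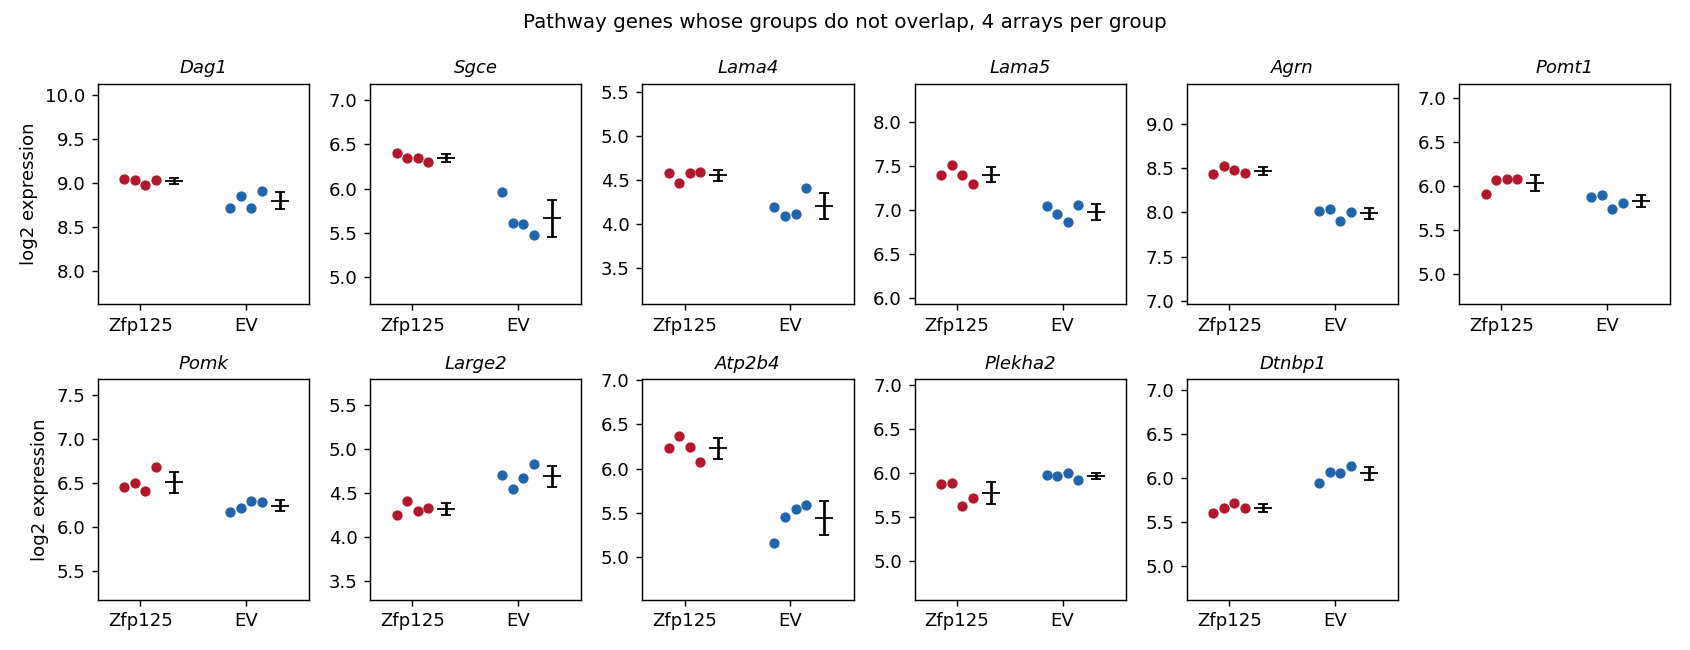
Log2 expression by array of the 11 pathway genes whose groups do not overlap (Dag1, Sgce, Lama4, Lama5, Agrn, Pomt1, Pomk, Large2, Atp2b4, Plekha2 and Dtnbp1), each by its brightest cluster; Zfp125 cells at the left and EV cells at the right of each panel; points are arrays and black bars the mean ± SD (n = 4). They are higher in Zfp125 cells in 8 panels and lower in those of Large2, Plekha2 and Dtnbp1.

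Markers of other cells that use the complex were read beside these results. Of 10 markers of skeletal and cardiac muscle, 0 were called, and differences ran between -0.25 and 0.03. Their linear values summed to between 359 and 380.2 on the Zfp125 arrays and between 380.4 and 411 on the EV arrays. The mean levels of these markers had a median of 5.27 and reached down to 2.96. No detection call was used, so how much of the sums is background is not known. Of 6 measured neuron and glia markers 0 were called, with sums of 226 to 243 on the Zfp125 arrays and 230.1 to 251 on the EV arrays. Of 8 hepatocyte markers 2 fell (Fgb and Tat) and 0 rose, beside 0.123% of all clusters called lower and 0.0242% higher. Differences were negative in 7 of the 8, with a median of -0.43. The groups of 5 of the 8 did not overlap, beside 7.29% of the 22180 genes. Sums of the hepatocyte markers were 14083 to 14691 on the Zfp125 arrays against 16316 to 18254 on the EV arrays. The sums are made up mostly of Alb, with -0.48 ± 0.08 (SE, adjusted p = 0.0794 by limma), and Ttr, with 0.08 ± 0.10 (SE, adjusted p = 0.863). Whether these markers have a part in the Sntb1 difference was not tested.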

How the data were processed

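The deposited table holds log2 expression values, 1 per transcript cluster and array; the scale was read from the values. Per the submitters' processing notes the authors used Affymetrix Expression Console with Transcriptome Analysis Console; the sources used here do not give versions, background correction or normalization, and nothing was normalized again in the principal analysis. Of 41345 clusters, 23521 carried 1 gene symbol in the platform annotation, 1814 several and 16010 none here; current symbols came from RefSeq's gene table (GRCm38.p6) by Entrez identifier.

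Differences were fitted with limma 3.58.1 (lmFit, eBayes) in R 4.3.3 over all clusters, two-sided, with Benjamini-Hochberg adjustment; plots used matplotlib 3.10.9. For pathway genes with several clusters the one with the highest mean over 8 arrays was used. The members and all lists were chosen with earlier results of these data known. The rule named all members, pathway and neighbour genes that passed, the 2 others with the smallest p in each list, and the 5 genes closest to Sntb1; Abca1, Lama4 and Pomt1 were named outside it. On simulated data with 200 of 41345 clusters changed between Zfp125 and EV, the test recovered 16% of changes of 0.5, 83% of 1 and 94% of 2 on the log2 scale, with 4 false calls among 142. Markers of macrophages, endothelial, stellate and bile duct cells were also read: 0 of 6, 5, 6 and 4 measured genes were called.

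Same-numbered arrays of the 2 groups did not deviate together (correlations of deviations between -0.041 and 0.030), so the numbers were not used to pair arrays. Alternatives covered normalization, centring, filters on dim clusters, array weights, variance moderation, 1 cluster per gene, a replicate block and leaving out each array.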

Additional observations from a re-analysis of the deposited data

Results flagged for a closer look

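Of 50 groups of 4 arrays examined for 25 named genes, 1 held an array far from the others by Dixon's criterion, and chance alone flags about 1 in 20. For Dag1, the dystroglycan gene, replicate 3 of the Zfp125 cells was at 8.98, while the next lowest Zfp125 array was at 9.04 and the highest at 9.05. All 4 were above the EV arrays, which reached 8.91.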

How the results depend on the processing

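Across every alternative run, the difference of Sntb1 lay between -1.60 and -1.46 and that of Utrn between 0.28 and 0.33, and no member's difference moved by more than the pooled SD of its 2 groups. Leaving out 1 array gave ranges of -0.25 to -0.08 for Dtnb, -0.19 to -0.13 for Dmd, -0.13 to 0.16 for Sntg1, -0.12 to 0.12 for Sgcb, -0.01 to 0.08 for Sntb2, -0.06 to 0.16 for Dtna and 0.11 to 0.19 for Sntg2, so the sign of Sntg1, Sgcb, Sntb2 and Dtna is not settled. The filter above the median level left out Dmd, Sntg1, Sntg2 and Dtna. Each member has 1 cluster, so averaging clusters changed nothing. With the replicate block, and likewise without variance moderation, 0 of 9 members passed the threshold of the fit, so Sntb1 did not pass there.

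Over all clusters, 10 were higher and 51 lower in Zfp125 cells. The counts were 86 and 146 above the median level, 70 and 126 with a trended robust prior, 99 and 141 with 1 cluster per gene, 1 and 3 without variance moderation, and 0 and 0 with the replicate block. With median centring 4 were higher, and above the 25th percentile level 22. On leaving out 1 array, 0 to 15 were higher and 16 to 51 lower, with 0 higher without Zfp125 replicate 1 or 2 and 16 lower without Zfp125 replicate 1. The count of lower clusters moved by more than 1.5 times without Zfp125 replicates 1, 2 or 3 or EV replicates 1, 3 or 4, and that of higher clusters without Zfp125 replicates 1, 2 or 3 or EV replicates 2, 3 or 4.

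Of 68 pathway genes, 1 rose and 0 fell. Above the median level 4 rose and 1 fell, as with 1 cluster per gene; 3 rose above the 25th percentile level and 3 with the trended prior. With the replicate block and without moderation 0 rose (Atp2b4, adjusted p = 0.188 and 0.136), and on leaving out 1 array 0 to 1 rose. Of 18 neighbours 0 changed in any setting. By construction fewer clusters enter both the variance moderation and the adjustment in the first 3 of these settings. Which of these moved the counts, and the cause of the other changes, was not tested.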
